A study of Mus musculus with 30 samples.

Results

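Matrix metalloproteinases (MMPs), the ADAMTS proteases (a disintegrin-like and metalloproteinase domain with thrombospondin motifs) and the tissue inhibitors of metalloproteinases (TIMPs) were followed across sorted mesenchymal stromal cells of the mouse intestine. Members were all protein-coding genes whose symbol is Mmp with a number and at most 1 further letter, Adamts with a number, or Timp with a number from 1 to 4. There were 45 such genes, 22 *Mmp*, 19 *Adamts* and 4 *Timp*, of 32386 gene symbols matched in the deposited files. *Mmp1a* has a symbol of this form but is annotated as a polymorphic pseudogene and was not a member. It had 1 estimated count in all 30 libraries together.

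MMPs are zinc-dependent proteases made as inactive precursors, either secreted or held at the cell surface, that cleave collagens, other matrix proteins, growth factors and cell surface proteins. ADAMTS proteases are secreted and include enzymes that trim procollagens, cleave large proteoglycans such as versican, or bind microfibrils. TIMPs block the active site of MMPs, and in the gut wall stromal cells are a main source of several of these proteases and inhibitors, which are known for their part in matrix turnover during repair, inflammation and fibrosis.

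The series holds 30 bulk RNA-seq libraries, 3 of each of 10 populations sorted by flow cytometry from untreated C57BL6/Nrj mice aged 8 to 10 weeks. Small intestine and colon came from 3 individual mice per the labels, which do not say whether a replicate number marks a mouse. Muscularis externa, Peyer’s patches and epithelium had been removed, and dead cells and cells with lineage markers, CD31, BP3, EpCAM or high NCAM were gated out. The RNA was amplified as whole transcriptome before libraries were made. Small intestinal and colonic pericytes were PDGFRα-ESAM-1+PDPN-, and small intestinal smooth muscle cells (SMC) were PDGFRα-ESAM-1+PDPN+. Among ESAM-1- cells of the small intestine, PDGFRα hi fibroblasts (FB) were PDGFRα hiCD34-, Fgfr2+ FB were PDGFRα intCD34-, and CD34+ FB were PDGFRα intCD34+, a gate that takes in both CD81+ and Igfbp5+ FB. Among ESAM-1- cells of the colon, PDGFRα hi FB were PDPN+CD34-, Fgfr2+ FB were PDPN hiCD34+CD90-, CD90+ FB were PDPN hiCD34+CD90+, and CD81+ FB were PDPN intCD34+CD90-. PDGFRα hi FB and Fgfr2+ FB were therefore sorted through different gates in the small intestine and colon, and for them the tissue and the gate cannot be told apart.

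Values are estimated counts of transcripts that the authors obtained with kallisto, summed here to genes and rounded. Library totals lay between 2245052 and 19096945 with a median of 9601683, and replicate 3 of small intestinal Fgfr2+ FB was the smallest. Levels are CPM, counts scaled to a common library size, with TMM normalization, edgeR’s correction for library composition, and levels of different genes are compared only as CPM per kilobase of effective transcript length. Differences were tested gene by gene over every gene that reached 6 counts in 3 or more libraries of the comparison, by edgeR’s quasi-likelihood test. A call of higher or lower needed an adjusted p (Benjamini-Hochberg) under 0.05 together with a log2 fold change over 1.5 in size, and every adjusted p in the text comes from this test and adjustment unless DESeq2 is named. Standard errors (SE) are those of the log2 fold change.

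The labels of the sorted populations were checked against lists of marker genes. The 8 pericyte markers summed to 31383 to 52024 CPM in the pericyte libraries of both tissues, 4363 to 8313 CPM in SMC, 1882 to 4209 CPM in small intestinal FB and 151 to 755 CPM in colonic FB. *Rgs5* was the most abundant of them over all libraries, and every small intestinal FB library held more of their RNA than any colonic FB library. In the small intestine *Rgs5* made up most of the sum in CD34+ FB (3429 to 4075 CPM) and Fgfr2+ FB (1444 to 1906 CPM) but only 150.3 to 349 CPM of it in PDGFRα hi FB, so the sums were not of the same genes in all FB. The 6 SMC markers, most abundant *Myh11* over all libraries, summed to 17851 to 21942 CPM in SMC, 10054 to 11628 CPM in colonic pericytes and 2989 to 4372 CPM in small intestinal pericytes. Among FB they summed to 2211 to 3595 CPM in small intestinal PDGFRα hi cells, overlapping with these pericytes, 1315 to 2326 CPM in colonic PDGFRα hi cells and 41.4 to 892 CPM in the others. The 6 FB markers, most abundant *Col1a1*, summed to 12319 to 69092 CPM in FB, 5192 to 9829 CPM in SMC and 1414 to 2459 CPM in pericytes. Over all genes the small intestinal pericyte libraries resembled each other least, with mean correlations of log2 CPM to the other replicates of 0.738 to 0.778, against 0.965 to 0.969 in small intestinal CD34+ FB. Replicate 1 of small intestinal pericytes also held 222 CPM of 6 macrophage markers and 191 CPM of 3 plasma and B cell markers, where the other replicates held 83.1 and 79.3 CPM and 3.53 and 7.39 CPM. Nearly all of it was *Cd68* (218 CPM) and *Cd79a* (191 CPM), while 4 of the 6 macrophage and 2 of the 3 plasma and B cell markers had no count there, so these sums rest almost wholly on 1 gene each. Replicate 2 of colonic pericytes held 166 CPM of the macrophage markers, with 5 of the 6 counted and *Cd68* at 23.6 CPM, and 30.8 CPM of 5 epithelial markers. The other colonic pericyte replicates held 90.4 and 31.2 CPM of macrophage markers and at most 0.0731 CPM of epithelial ones. Replicate 2 of small intestinal pericytes held 28.9 CPM of epithelial markers, 27.6 CPM of it *Vil1*, against 0.205 and 0.485 CPM in the others, and the highest sums of Paneth cell (5.35 CPM) and mesothelial markers (7.29 CPM) of all libraries. Replicate 3 of SMC held 189 CPM of 4 endothelial markers, 174 CPM of it *Pecam1* and 1 marker without a count, against 39.7 and 42.5 CPM in the other SMC replicates, and had the lowest normalization factor of all libraries (0.647). The 2 markers of interstitial cells of Cajal summed to 527 to 1045 CPM in the 6 pericyte libraries, there nearly all *Ano1*, 0.579 to 2.24 CPM in SMC and at most 83.4 CPM in FB. A part of other cell types in these libraries was not tested.

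Of the 45 members, 28 reached a mean of 20 CPM in at least 1 population, 15 stayed under 10 CPM in every population, and 17 were above 3 counts in all 30 libraries. *Mmp1b* and *Mmp7* had no count. Counting the population with the highest mean, 8 members peaked in small intestinal CD34+ FB, 7 in colonic pericytes, 6 in colonic CD81+ FB and 5 in small intestinal Fgfr2+ FB. Summed over members, MMP transcripts were most abundant in small intestinal Fgfr2+ FB, at 1751, 1411 and 1017 CPM per kilobase in the 3 libraries. The next highest population mean was 800.0 CPM per kilobase in colonic PDGFRα hi FB, and the lowest 198 CPM per kilobase in colonic pericytes. TIMP transcripts followed another order, from 1048, 903 and 1289 CPM per kilobase in small intestinal pericytes, the highest mean, down to 213, 255.3 and 155 CPM per kilobase in small intestinal Fgfr2+ FB, the lowest. The ratio of summed TIMP to summed protease transcripts per kilobase was 0.113 ± 0.0209 (SD, n = 3) in small intestinal Fgfr2+ FB. Its means ranged from 0.331 in small intestinal PDGFRα hi FB to 1.34 in small intestinal pericytes elsewhere. Every small intestinal Fgfr2+ FB library, at 0.0938 to 0.135, lay below every other library, of which the lowest was at 0.271. These sums are descriptions over members and were not tested. They come from bulk samples, in which fewer cells of a type and less RNA per cell cannot be told apart.

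**Figure D1:**
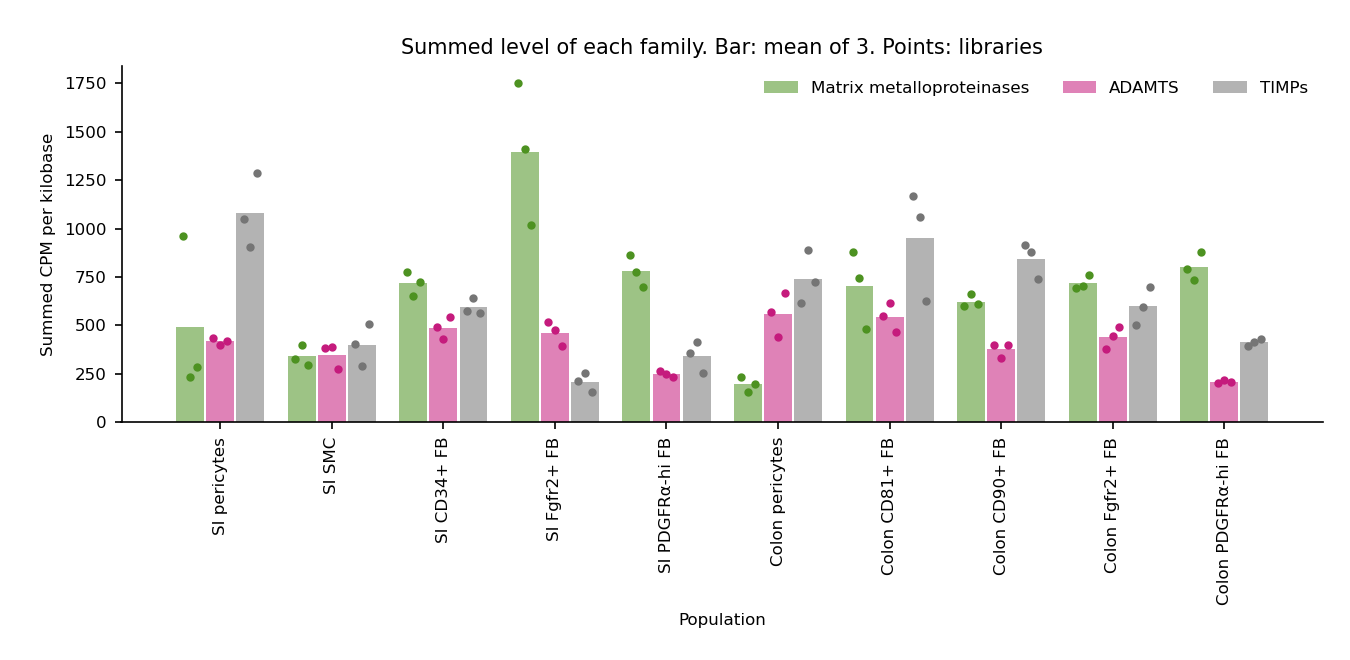
Summed transcript levels of the 22 *Mmp*, 19 *Adamts* and 4 *Timp* genes in CPM per kilobase (vertical axes, linear, from 0) in the 10 populations. Points are the 3 libraries and bars their means, with small intestinal Fgfr2+ FB highest for MMPs and lowest for TIMPs.

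Within the MMP sum, *Mmp2* was the largest contributor in 6 of the 7 FB populations, from 38.7% in colonic CD90+ FB to 59.8% in colonic PDGFRα hi FB, and in small intestinal Fgfr2+ FB *Mmp10* was, at 36.6%. *Mmp14* led in SMC and colonic pericytes and *Mmp11* in small intestinal pericytes. ADAMTS sums were lowest in PDGFRα hi FB of both tissues, at 250.3 ± 15.4 CPM per kilobase (small intestine) and 210.5 ± 9.91 CPM per kilobase (colon). *Adamts10* was the largest contributor to the ADAMTS sum in 5 populations. Of its counts, however, only 3.83% fell on a protein-coding transcript and 50.1% on a transcript annotated as a retained intron. Whether its level reflects the coding mRNA cannot be settled from estimated counts. *Timp3* made up 89.95% of the TIMP sum in small intestinal and 88.2% in colonic pericytes, and *Timp2* was the largest contributor in SMC and in all 7 FB populations.

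**Figure D2:**
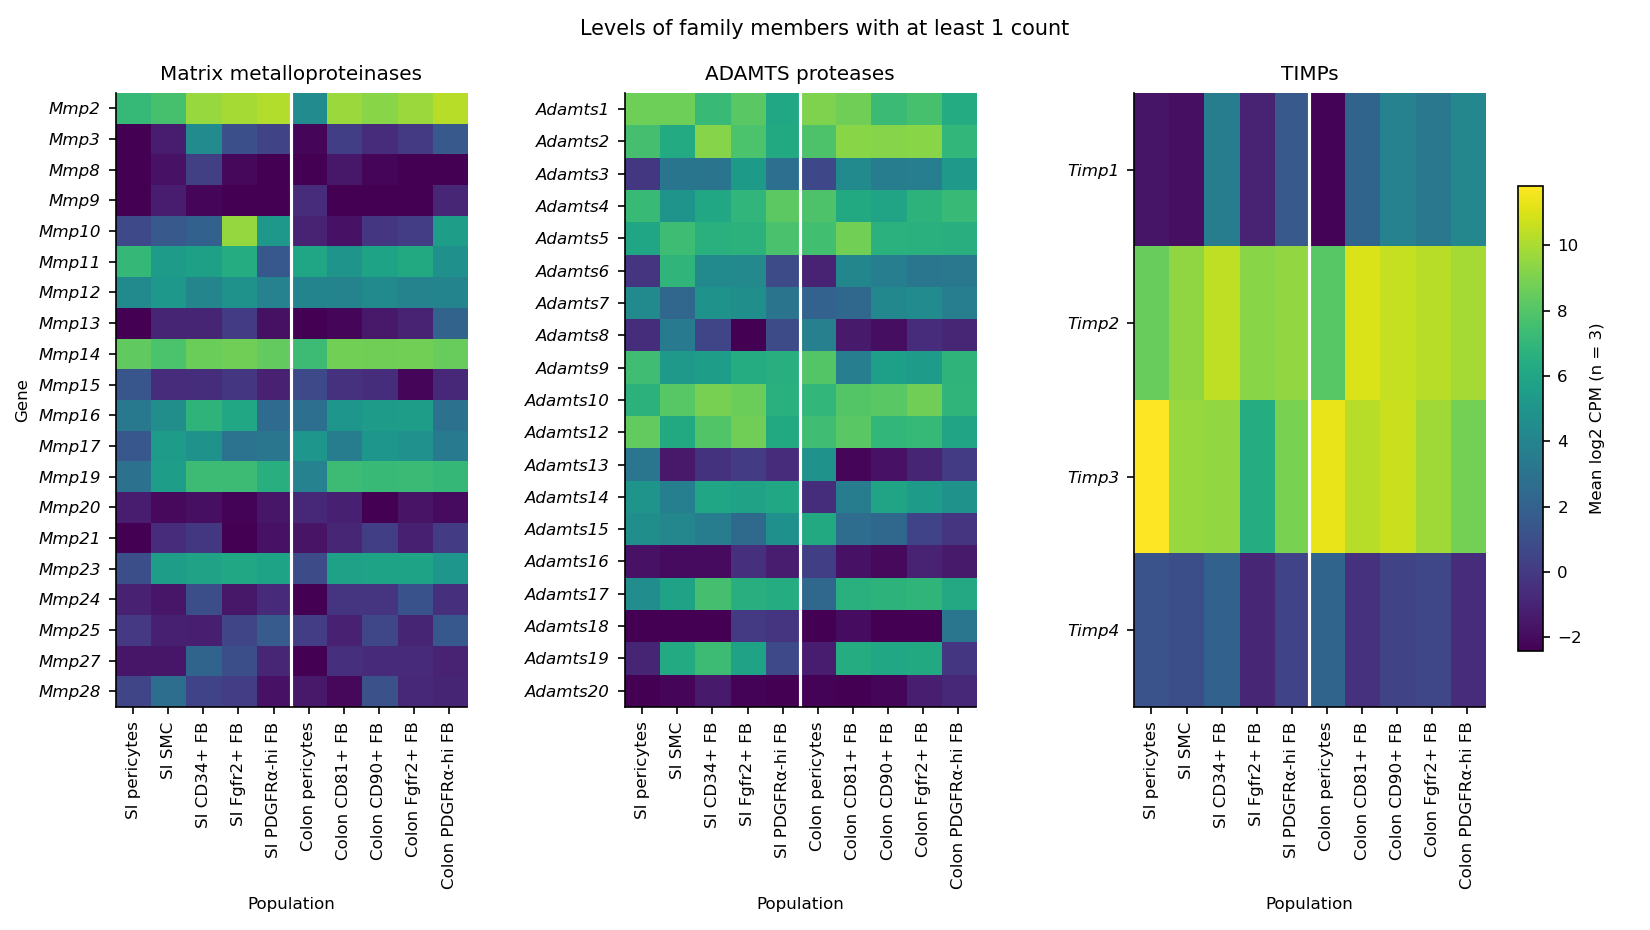
Mean log2 CPM (colour scale, prior count 2) of the members in the 10 populations, each cell the mean of 3 libraries. *Mmp10* stands out in small intestinal Fgfr2+ FB, *Timp3* in pericytes, and *Adamts6* in SMC.

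*Mmp2* (chromosome 8, 92827291 to 92853420) encodes gelatinase A, which cleaves denatured collagen and basement membrane collagen. *Mmp2* in the small intestinal FB was at 1387, 1286 and 864 CPM in PDGFRα hi, 1344, 852 and 776 in Fgfr2+ and 860.0, 668 and 855 in CD34+ cells. In colonic FB *Mmp2* was at 1166, 1211 and 1358 CPM in PDGFRα hi, 699.9, 753 and 1039.9 in Fgfr2+, 577, 653 and 674 in CD90+ and 1203, 988 and 473 in CD81+ cells. *Mmp2* was at 206, 79.7 and 157 CPM in small intestinal pericytes, 235, 229.9 and 163 in SMC and 28.5, 5.89 and 58.8 in colonic pericytes. Every FB library of either tissue was above every mural library (pericytes and SMC). PDGFRα hi FB were above CD34+ FB in every library of the small intestine, and above Fgfr2+ and CD90+ FB in every library of the colon, where CD81+ FB overlapped with all other FB. *Mmp2* was lower in small intestinal mural cells than in small intestinal FB (edgeR, log2 fold change -2.47, SE 0.25, adjusted p = 5.15e-06) and lower in colonic pericytes than in colonic FB (edgeR, log2 fold change -4.79, SE 0.56, adjusted p = 6.30e-06). Both calls remained with any 1 library left out.

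*Mmp14* encodes MT1-MMP, a membrane-bound protease that activates the MMP2 precursor. *Mmp14* was at 998, 176 and 194 CPM in small intestinal pericytes, 236, 332 and 136 in SMC and 211, 147 and 139 in colonic pericytes. *Mmp14* in the small intestinal FB was at 492, 310.4 and 265 CPM in PDGFRα hi, 635, 438 and 266 in Fgfr2+ and 426, 401 and 378 in CD34+ cells. In colonic FB *Mmp14* was at 371, 312 and 407 CPM in PDGFRα hi, 413, 434 and 459 in Fgfr2+, 431, 453 and 382 in CD90+ and 693, 432 and 286 in CD81+ cells. Replicate 1 of small intestinal pericytes, at 998 CPM, was the highest library of all, and the other pericyte and SMC libraries lay between 136 and 332 CPM. That library is the one high in *Cd68* and *Cd79a*, and a part of other cell types in its *Mmp14* level was not tested. *Mmp14* was called in none of the 11 comparisons by edgeR. In the comparison of pericytes between tissues its adjusted p was 0.611 at a log2 fold change of 1.53.

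*Mmp16*, which encodes MT3-MMP, averaged 118 ± 30.8 CPM among CD34+ FB of the small intestine, 76.9 ± 51.1 and 46.5 ± 10.1 CPM in Fgfr2+ FB of the small intestine and colon, and 6.02 ± 2.35 and 8.60 ± 5.58 CPM in PDGFRα hi FB of the small intestine and colon (mean ± SD, n = 3). It was higher in Fgfr2+ FB than in PDGFRα hi FB, without overlap of the 6 libraries of each (edgeR, log2 fold change 3.08, SE 0.44, adjusted p = 0.000765), and higher in small intestinal CD34+ FB than in the CD34- FB (edgeR, log2 fold change 2.45, SE 0.40, adjusted p = 0.00402). The CD34- FB are a mean of 2 populations that differ in this gene, and small intestinal CD34+ FB overlapped with Fgfr2+ FB. Of the counts of *Mmp16* 41.3% fell on coding transcripts, and both calls remained with coding transcripts alone. *Mmp24*, which encodes MT5-MMP, ranged from 0 to 10.97 CPM in FB and had no count in any colonic pericyte library. It was at least 5.35-fold lower in colonic pericytes than in colonic FB, taking 3 counts per library as the floor (adjusted p = 0.0228). Of the 31-base stretches of *Mmp24* 13.05% occur in other genes’ transcripts, and the gene sharing most of them had 2946 counts over all libraries beside 336 for *Mmp24*. A division of reads was not tested. Leaving out any 1 of the 3 pericyte libraries ended the call of *Mmp24*, with adjusted p between 0.0551 and 0.0620. *Mmp17* and *Mmp25*, whose products are held by a GPI anchor, and the membrane-type *Mmp15* were called nowhere. *Mmp17* reached 47.2 ± 23.9 CPM in SMC, *Mmp15* 5.57 ± 6.82 CPM in small intestinal pericytes and *Mmp25* 6.71 ± 9.51 CPM in small intestinal PDGFRα hi FB. *Mmp9*, gelatinase B, was without a count in 25 libraries, with a highest value of 7.53 CPM in a colonic pericyte library, and was tested in no comparison. *Mmp9* was at 0, 0 and 7.53 CPM in the colonic pericyte replicates, where *Csf3r*, the most abundant of 5 neutrophil markers over all libraries, was at 37.4, 3.32 and 7.61 CPM and the other 4 had no count. *Csf3r* was counted in every library and reached 33.7 CPM in SMC, *S100a9* had no count in any library and *S100a8* was at most 1.08 CPM, and a part of neutrophils in the *Mmp9* values was not tested.

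*Mmp10* (chromosome 9, 7502352 to 7510240) encodes stromelysin-2, a secreted protease of broad specificity that can activate other MMP precursors. *Mmp10* in the small intestinal FB was at 33.3, 14.9 and 96.4 CPM in PDGFRα hi, 792, 921 and 630.2 in Fgfr2+ and 3.87, 4.61 and 3.098 in CD34+ cells. In colonic FB *Mmp10* was at 48.8, 27.2 and 70.6 CPM in PDGFRα hi, 0.321, 1.27 and 1.73 in Fgfr2+, 0.329, 0.0604 and 5.24 in CD90+ and 0.564, 0 and 0 in CD81+ cells. *Mmp10* was at 0.410, 0.972 and 6.66 CPM in small intestinal pericytes, 0.639, 3.56 and 7.99 in SMC and 1.25, 0.246 and 0 in colonic pericytes. The 3 small intestinal Fgfr2+ FB libraries stood far above all others. The next highest were the PDGFRα hi FB of both tissues, and the libraries of the other 7 populations were at 7.99 CPM or less. Between small intestinal and colonic Fgfr2+ FB it was called with the largest fold change of any member in that comparison (edgeR, log2 fold change 9.45, SE 0.80, adjusted p = 9.64e-06). Between the PDGFRα hi FB of both tissues the libraries overlapped and the gene was not called (log2 fold change 0.00, adjusted p = 1.00). The interaction term, which tests whether the tissue difference itself differed between Fgfr2+ FB and PDGFRα hi FB, was 9.46 on the log2 scale (SE 0.93, adjusted p = 0.000163). *Mmp10* was also lower in small intestinal CD34+ FB than in the CD34- FB (edgeR, log2 fold change -5.65, SE 0.63, adjusted p = 0.000305) and lower in mural cells than in FB of the small intestine (edgeR, log2 fold change -3.99, SE 0.63, adjusted p = 0.000427). These 4 calls remained with every library left out in turn and under every alternative setting. Small intestinal CD34+ FB, at 3.098 to 4.61 CPM, nevertheless lay within the range of the small intestinal mural libraries, at 0.410 to 7.99 CPM.

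*Mmp3* (chromosome 9, 7445822 to 7455975), stromelysin-1, lies next to *Mmp10* and peaked in another population. *Mmp3* in the small intestinal FB was at 2.24, 0.597 and 1.36 CPM in PDGFRα hi, 0.138, 5.60 and 4.41 in Fgfr2+ and 34.2, 17.0 and 17.9 in CD34+ cells. In colonic FB *Mmp3* was at 1.59, 3.02 and 4.21 CPM in PDGFRα hi, 0, 1.66 and 2.71 in Fgfr2+, 0.329, 2.72 and 0 in CD90+ and 0, 2.27 and 3.14 in CD81+ cells. It was at 0.745 CPM or less in SMC, at 0.123 CPM or less in colonic pericytes, and without a count in small intestinal pericytes. All 3 small intestinal CD34+ FB libraries were above every other library. *Mmp3* was higher in small intestinal CD34+ FB than in the CD34- FB (edgeR, log2 fold change 3.42, SE 0.81, adjusted p = 0.0307) and lower in mural cells than in FB of the small intestine (edgeR, log2 fold change -6.19, SE 1.22, adjusted p = 0.00401). Leaving out any replicate of small intestinal CD34+ FB or any replicate of small intestinal PDGFRα hi FB ended the first of these calls (log2 fold changes 3.01 to 3.67, adjusted p 0.0553 to 0.212), which was also lost with replicate numbers as a block (log2 fold change 3.40, adjusted p = 0.0588), and the second remained with every library left out. *Mmp3* and *Mmp10* share sequence, and 14.6% of the 31-base stretches of *Mmp3* transcripts also occur in other genes’ transcripts, so a part of their reads could have been divided between them.

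*Mmp11*, stromelysin-3, which is activated inside the cell by furin, was called in no comparison. It was at 354, 50.8 and 33.4 CPM in Fgfr2+ FB, 131, 200.1 and 91.7 CPM in pericytes and 1.58, 5.42 and 2.04 CPM in PDGFRα hi FB, all of the small intestine. The Fgfr2+ FB replicates differed widely from each other, and replicate 1 alone exceeded 200.1 CPM. 

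*Mmp3* and *Mmp10* belong to a cluster of 9 members on chromosome 9, between 7272514 and 7699585, which also holds *Mmp13*, *Mmp12*, *Mmp1b*, *Mmp8*, *Mmp27*, *Mmp20* and *Mmp7*. Promoter windows of 300 bases (250 before to 50 after the start) were taken from RefSeq (GRCm38.p6), where 31 of the 45 members had at least 1. Windows were searched on both strands for TGANTCA, the AP-1 motif, and for TATAAA, the TATA box. AP-1 matched in 2565 of 32851 windows of all genes (7.81%) and the TATA box in 4473 (13.6%). In the cluster, 7 of 9 members had an AP-1 match, and all 7 also had a TATA box. None of the 22 other members with a window had an AP-1 match and 2 had a TATA box. A match is only a description of the sequence. The windows of *Mmp3*, *Mmp10* and *Mmp13* are shown because these neighbours carry the same pair of motifs while their transcripts peaked in different populations, *Mmp13* at no more than 7.35 CPM in any library. Capitals mark AP-1 and TATA box matches, and all 3 are on the + strand: *Mmp3* at chr9:7445572-7445871, *Mmp10* at chr9:7502092-7502391 and *Mmp13* at chr9:7272264-7272563.
Mmp3: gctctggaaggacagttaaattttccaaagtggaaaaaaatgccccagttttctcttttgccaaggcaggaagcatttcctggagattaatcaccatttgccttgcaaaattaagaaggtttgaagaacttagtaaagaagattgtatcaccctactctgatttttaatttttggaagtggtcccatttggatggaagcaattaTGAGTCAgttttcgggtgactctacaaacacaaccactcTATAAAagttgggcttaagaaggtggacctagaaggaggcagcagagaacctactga
Mmp10: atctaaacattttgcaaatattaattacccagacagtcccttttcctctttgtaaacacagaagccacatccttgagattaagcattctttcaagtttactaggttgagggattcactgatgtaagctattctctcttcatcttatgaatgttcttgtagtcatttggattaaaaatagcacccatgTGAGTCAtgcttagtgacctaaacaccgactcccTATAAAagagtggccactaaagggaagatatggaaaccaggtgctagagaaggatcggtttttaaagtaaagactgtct
Mmp13: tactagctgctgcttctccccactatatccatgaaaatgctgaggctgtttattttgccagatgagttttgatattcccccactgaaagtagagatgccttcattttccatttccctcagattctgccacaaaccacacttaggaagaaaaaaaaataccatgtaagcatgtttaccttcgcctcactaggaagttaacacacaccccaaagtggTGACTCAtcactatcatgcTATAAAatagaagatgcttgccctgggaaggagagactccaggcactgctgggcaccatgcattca

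Of the remaining MMPs only *Mmp23*, *Mmp19* and *Mmp28* were called, each in comparisons of mural cells with FB alone. *Mmp23* encodes an MMP that is released from the membrane by cleavage of its own propeptide. *Mmp23* in the small intestinal FB was at 46.4, 71.6 and 55.0 CPM in PDGFRα hi, 94.3, 104 and 34.5 in Fgfr2+ and 56.2, 44.1 and 64.1 in CD34+ cells. In colonic FB *Mmp23* was at 26.9, 36.1 and 36.0 CPM in PDGFRα hi, 63.2, 56.4 and 53.9 in Fgfr2+, 46.5, 72.5 and 52.2 in CD90+ and 30.8, 87.0 and 53.3 in CD81+ cells. *Mmp23* was at 0.205, 2.43 and 7.27 CPM in small intestinal pericytes, 23.7, 43.5 and 85.7 in SMC and 0.520, 2.33 and 3.00 in colonic pericytes. All pericyte libraries were at 7.27 CPM or less, below every FB library, while SMC overlapped with FB and were highest in replicate 3. It was called lower in small intestinal mural cells than in FB and lower in colonic pericytes than in FB. Of its counts 58.3% fell on coding transcripts, and with coding transcripts alone the small intestinal call was lost (log2 fold change -1.92, adjusted p = 0.0930). *Mmp19* was at 57.1 to 233 CPM in FB, 35.8 to 59.7 CPM in SMC and 3.80 to 58.8 CPM in pericytes, and was lower in small intestinal mural cells (edgeR, log2 fold change -2.81, SE 0.32, adjusted p = 1.71e-05). It was also called lower in colonic pericytes than in colonic FB, where the log2 fold change was -2.57, and -4.11 without replicate 2 of these pericytes, the library with the most macrophage and epithelial markers among them. A part of other cell types in this value was not tested.

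*Mmp28*, epilysin, was at 94.4, 0 and 0 CPM in small intestinal pericytes, 7.03, 15.1 and 2.55 CPM in SMC and 0, 0.123 and 0.658 CPM in colonic pericytes. *Mmp28* in the small intestinal FB was at 0.131, 0.108 and 0.113 CPM in PDGFRα hi, 4.90, 1.38 and 0 in Fgfr2+ and 0.849, 1.83 and 1.07 in CD34+ cells. In colonic FB *Mmp28* was at 0.122, 0.131 and 1.22 CPM in PDGFRα hi, 0, 0 and 5.203 in Fgfr2+, 1.46, 4.16 and 1.22 in CD90+ and 0.161, 0 and 0 in CD81+ cells. In pericytes a single library held nearly all of its counts, whereas all 3 SMC libraries had it. It was called higher in small intestinal mural cells (edgeR, log2 fold change 4.51, SE 1.23, adjusted p = 0.0269). Without replicate 1 of small intestinal pericytes the direction turned, to a log2 fold change of -1.16 (adjusted p = 0.498). Without replicate 2 of SMC, any replicate of CD34+ FB or of PDGFRα hi FB, or replicate 2 of Fgfr2+ FB the direction held but the call did not (log2 fold changes 4.12 to 4.64, adjusted p 0.0549 to 0.0645). The call was also lost with replicate numbers as a block (log2 fold change 3.79, adjusted p = 0.108). Replicate 1 is again the pericyte library high in *Cd68* and *Cd79a*, and a part of other cell types in this value was not tested.

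Collagenases and the MMPs best known from leukocytes and epithelium were scarce. *Mmp8*, the neutrophil collagenase, was at most 1.98 CPM, *Mmp13*, collagenase-3, averaged 4.301 ± 1.75 CPM in colonic PDGFRα hi FB, and *Mmp1b* was not counted. *Mmp7*, matrilysin, a Paneth cell product in mouse small intestine, had no count, and 4 Paneth cell markers summed to at most 5.35 CPM in a library. *Mmp12*, macrophage metalloelastase, was counted in every library at 7.74 to 66.1 CPM, but none of its counts fell on a coding transcript and 98.3% fell on one annotated as a retained intron. Its mean was highest in SMC, at 39.5 ± 23.1 CPM, where the 6 macrophage markers summed to 13.0 to 21.3 CPM. *Mmp20*, *Mmp21* and *Mmp27* stayed at or below 9.06 CPM in all libraries and were called in no comparison.

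Among the ADAMTS proteases that cleave aggrecan and versican, *Adamts1*, *Adamts4*, *Adamts5* and *Adamts9* were counted in every library. *Adamts1* was at 545 ± 119 CPM in colonic pericytes, 437 ± 105 CPM in colonic CD81+ FB and, at its lowest, 71.5 ± 17.1 CPM among PDGFRα hi FB of the small intestine. It was higher in Fgfr2+ FB than in PDGFRα hi FB, without overlap (edgeR, log2 fold change 1.85, SE 0.33, adjusted p = 0.00366), in colonic pericytes than in colonic FB (edgeR, log2 fold change 1.57, SE 0.22, adjusted p = 6.07e-05), and in colonic CD81+ FB than in the other colonic FB (edgeR, log2 fold change 1.64, SE 0.23, adjusted p = 0.000377). These 3 log2 fold changes fell to the threshold or below it without replicate 1 of small intestinal Fgfr2+ FB (1.496), replicate 1 of colonic pericytes (1.38) and replicate 3 of colonic CD81+ FB (1.42) respectively. *Adamts5* was at 522, 502 and 329 CPM in colonic CD81+ FB and 77.4 to 123 CPM in the other colonic FB, again without overlap (edgeR, log2 fold change 2.22, SE 0.21, adjusted p = 1.27e-05), and this call remained with every library left out. *Adamts4* was highest in small intestinal PDGFRα hi FB, at 308 ± 89.5 CPM, and lower in small intestinal CD34+ FB than in the CD34- FB (edgeR, log2 fold change -1.53, SE 0.38, adjusted p = 0.0387). That call was lost without any replicate of small intestinal CD34+ FB, replicates 1 and 2 of small intestinal PDGFRα hi FB or replicate 1 of small intestinal Fgfr2+ FB (log2 fold changes -1.85 to -1.24, adjusted p 0.0249 to 0.219), and with replicate numbers as a block (log2 fold change -1.44, adjusted p = 0.0367). *Adamts9* was at 239, 208 and 334 CPM in colonic and 168, 135 and 240.2 CPM in small intestinal pericytes, and at 25.4, 4.98 and 15.3 CPM in colonic CD81+ FB, its lowest population. It was higher in colonic pericytes than in colonic FB (edgeR, log2 fold change 2.54, SE 0.35, adjusted p = 4.58e-05) and lower in CD81+ FB than in the other colonic FB (edgeR, log2 fold change -2.11, SE 0.50, adjusted p = 0.0156).

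*Adamts1*, *Adamts4* and *Adamts9* are known to respond to acute stimulation of cells, so the immediate early genes are given beside them. The 7 genes of that list (*Fos*, *Fosb*, *Jun*, *Junb*, *Egr1*, *Atf3* and *Ier2*), of which *Egr1* was the most abundant over all libraries, were all counted in every library. They summed to 7839, 10408 and 9159 CPM in colonic pericytes, 4542, 12424 and 5366 CPM in small intestinal pericytes and 7562, 9861 and 7113 CPM in colonic CD81+ FB. Low sums were found in SMC (516, 607 and 336 CPM), small intestinal PDGFRα hi FB (762, 334 and 716 CPM) and small intestinal Fgfr2+ FB (566, 543 and 623 CPM). Small intestinal CD34+ FB and the other colonic FB were at 1095 to 6482 CPM, and of these colonic Fgfr2+ FB overlapped with small intestinal pericytes. *Adamts1* was high in pericytes and colonic CD81+ FB, which were high in these genes, and also at 408 ± 41.7 CPM in SMC and 337 ± 216 CPM in Fgfr2+ FB of the small intestine, both low in them. Their part in these results was not tested.

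*Adamts15* was at 86.5, 55.1 and 87.0 CPM in colonic pericytes, 254.6, 1.46 and 38.2 CPM in small intestinal pericytes and 18.3, 7.61 and 40.8 CPM in SMC. *Adamts15* in the small intestinal FB was at 30.4, 44.2 and 14.3 CPM in PDGFRα hi, 11.5, 2.39 and 5.51 in Fgfr2+ and 8.68, 13.1 and 14.5 in CD34+ cells. In colonic FB *Adamts15* was at 1.22, 0.262 and 0.815 CPM in PDGFRα hi, 1.28, 0.685 and 1.73 in Fgfr2+, 12.1, 2.05 and 5.24 in CD90+ and 2.25, 5.35 and 18.1 in CD81+ cells. Colonic pericytes were above every colonic FB library, whereas the small intestinal pericytes spread over the range of FB and SMC, with replicate 1 the highest library of all. It is the library high in *Cd68* and *Cd79a*, and a part of other cell types was not tested. *Adamts15* was higher in colonic pericytes than in colonic FB (edgeR, log2 fold change 4.84, SE 0.54, adjusted p = 4.24e-06). In PDGFRα hi FB it was higher in the small intestine than in the colon, without overlap (edgeR, log2 fold change 5.25, SE 0.94, adjusted p = 0.00491), the only member called there. *Adamts8* was at 10.6, 7.61 and 29.3 CPM in colonic pericytes, 9.16, 6.02 and 22.9 CPM in SMC, 0, 0 and 9.09 CPM in small intestinal pericytes and at most 5.75 CPM in FB. It was called higher in small intestinal mural cells (edgeR, log2 fold change 4.11, SE 1.18, adjusted p = 0.0378) and in colonic pericytes (edgeR, log2 fold change 4.94, SE 1.31, adjusted p = 0.0126).

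The calls of *Adamts8* rested on few libraries and on few counts of coding sequence. Without replicate 3 of small intestinal pericytes the small intestinal fold change could not be estimated (SE 262 on the log2 scale). Without any replicate of SMC, CD34+ FB or Fgfr2+ FB, or replicates 1 and 3 of PDGFRα hi FB, left out singly, the log2 fold change was 3.80 to 4.27 with adjusted p of 0.0519 or more. The small intestinal call was also lost with replicate numbers as a block (log2 fold change 3.205, adjusted p = 0.167). Without replicate 3 of colonic pericytes the colonic value was 4.16, adjusted p = 0.0660. Of its counts 83.6% fell on a transcript annotated for nonsense-mediated decay, and with coding transcripts alone its small intestinal fold change could not be estimated (SE 640.2 on the log2 scale), while in colon it was not tested. *Adamts20* was at most 1.95 CPM in any library.

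The procollagen N-proteinases remove the amino-terminal propeptides of fibrillar procollagens. *Adamts2* was at 749, 451 and 668 CPM among CD34+ FB, 192, 279.9 and 191 CPM in Fgfr2+ FB and 79.5, 82.0 and 60.9 CPM in PDGFRα hi FB of the small intestine. In the colon it was at 452, 936 and 601 CPM in CD81+, 679, 577 and 575 CPM in CD90+, 560.3, 614 and 694 CPM in Fgfr2+ and 146, 113 and 135 CPM in PDGFRα hi FB. In both tissues the PDGFRα hi FB libraries were below all libraries of the other FB populations. *Adamts2* was higher in Fgfr2+ FB than in PDGFRα hi FB (edgeR, log2 fold change 2.04, SE 0.35, adjusted p = 0.00333) and higher in small intestinal CD34+ FB than in the CD34- FB (edgeR, log2 fold change 2.28, SE 0.21, adjusted p = 9.94e-05), and both calls remained with every library left out. *Adamts14* showed another order. *Adamts14* in the small intestinal FB was at 90.1, 50.9 and 67.1 CPM in PDGFRα hi, 21.1, 85.5 and 92.6 in Fgfr2+ and 46.4, 68.1 and 72.9 in CD34+ cells. In colonic FB *Adamts14* was at 42.4, 17.7 and 29.9 CPM in PDGFRα hi, 31.2, 48.7 and 57.0 in Fgfr2+, 78.7, 54.3 and 50.5 in CD90+ and 19.5, 4.303 and 17.9 in CD81+ cells. *Adamts14* was at 48.1, 14.95 and 38.4 CPM in small intestinal pericytes, 19.7, 16.0 and 6.72 in SMC and 0.416, 0.246 and 1.02 in colonic pericytes. Colonic pericytes were below all other libraries, while small intestinal pericytes overlapped with FB. It was lower in colonic pericytes than in colonic FB (edgeR, log2 fold change -5.76, SE 0.73, adjusted p = 1.57e-05), and was called lower in small intestinal mural cells than in FB and in colonic CD81+ FB than in the other colonic FB (edgeR, log2 fold change -1.65, SE 0.48, adjusted p = 0.0461). The last of these was lost in 9 of 12 fits with 1 library left out, those without replicates 2 and 3 of colonic CD81+ FB, any replicate of colonic CD90+ FB, replicates 2 and 3 of colonic Fgfr2+ FB or replicates 1 and 3 of colonic PDGFRα hi FB (log2 fold changes -1.89 to -1.23, adjusted p 0.0514 to 0.104), and with coding transcripts alone (adjusted p = 0.0549). The small intestinal call was lost without replicate 2 of small intestinal pericytes, replicate 3 of SMC or replicate 3 of small intestinal Fgfr2+ FB (log2 fold changes -1.49 to -1.39, adjusted p 0.0393 to 0.0509). *Adamts3* was called nowhere, with its highest mean, 43.7 ± 23.6 CPM, in small intestinal Fgfr2+ FB.

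*Adamts7* and *Adamts12* encode proteases that cleave cartilage oligomeric matrix protein. *Adamts12* was at 536, 457 and 301 CPM in Fgfr2+ FB and 222, 400.4 and 409 CPM in pericytes of the small intestine and 461, 219.6 and 234 CPM in colonic CD81+ FB. Its lowest population means were in PDGFRα hi FB of the small intestine, at 81.8, 55.0 and 93.8 CPM, and of the colon, at 59.3, 42.0 and 87.2 CPM, and in SMC, at 84.0, 55.8 and 90.7 CPM. In colonic pericytes, whose libraries differed widely, *Adamts12* was at 222 ± 148 CPM. It was higher in Fgfr2+ FB than in PDGFRα hi FB, without overlap (edgeR, log2 fold change 2.06, SE 0.39, adjusted p = 0.00607), and this call remained with every library left out. Between Fgfr2+ FB of the small intestine and colon it was higher in the small intestine (edgeR, log2 fold change 1.55, SE 0.36, adjusted p = 0.0275), a call lost without replicates 1 and 2 of colonic Fgfr2+ FB or replicates 1 and 2 of small intestinal Fgfr2+ FB (log2 fold changes 1.33 to 1.51, adjusted p 0.0610 to 0.113). It was also higher in colonic CD81+ FB than in the other colonic FB (edgeR, log2 fold change 1.53, SE 0.28, adjusted p = 0.00277) and lower in SMC than in small intestinal pericytes (edgeR, log2 fold change -2.21, SE 0.50, adjusted p = 0.0471). The first was lost without replicate 1 of colonic CD81+ FB, replicates 1 and 2 of colonic Fgfr2+ FB or replicate 2 of colonic PDGFRα hi FB (log2 fold changes 1.11 to 1.49, adjusted p 0.00598 to 0.0234), the second without replicates 2 and 3 of small intestinal pericytes or any replicate of SMC (log2 fold changes -2.33 to -2.02, adjusted p 0.119 to 0.272) and with replicate numbers as a block (log2 fold change -2.20, adjusted p = 0.0919). *Adamts7* stayed at 1.05 to 50.4 CPM with no call.

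*Adamts6*, *Adamts10*, *Adamts17* and *Adamts19* encode proteases that bind or act on fibrillin microfibrils or are close relatives of those that do. *Adamts6* (chromosome 13, 104287835 to 104496695) was at 116, 121 and 114 CPM in SMC, 0, 3.04 and 0.848 CPM in small intestinal and 0, 0.368 and 0.878 CPM in colonic pericytes. *Adamts6* in the small intestinal FB was at 2.104, 1.79 and 1.13 CPM in PDGFRα hi, 42.1, 19.7 and 8.82 in Fgfr2+ and 25.8, 22.6 and 13.5 in CD34+ cells. In colonic FB *Adamts6* was at 10.5, 7.35 and 11.5 CPM in PDGFRα hi, 11.03, 7.25 and 8.89 in Fgfr2+, 10.2, 19.8 and 9.78 in CD90+ and 6.76, 26.0 and 28.9 in CD81+ cells. SMC were above all other libraries with a narrow spread, and the pericytes were the lowest together with small intestinal PDGFRα hi FB. It was higher in SMC than in small intestinal pericytes (edgeR, log2 fold change 6.395, SE 1.27, adjusted p = 0.0278) and lower in colonic pericytes than in colonic FB (edgeR, log2 fold change -4.81, SE 0.98, adjusted p = 0.00181). The former call was lost without replicate 3 of small intestinal pericytes or any replicate of SMC (log2 fold changes 6.15 to 6.43, adjusted p 0.0828 to 0.104). *Adamts19* likewise differed between the mural populations. *Adamts19* was at 0.614, 0.243 and 0.242 CPM in small intestinal pericytes, 64.8, 73.6 and 93.6 in SMC and 0.104, 0.491 and 0.146 in colonic pericytes. *Adamts19* in the small intestinal FB was at 0.394, 0.380 and 12.9 CPM in PDGFRα hi, 26.9, 119.7 and 49.6 in Fgfr2+ and 153, 167 and 165 in CD34+ cells. In colonic FB *Adamts19* was at 1.59, 0.262 and 0.679 CPM in PDGFRα hi, 77.9, 64.0 and 82.8 in Fgfr2+, 83.4, 47.9 and 74.9 in CD90+ and 58.8, 108 and 98.4 in CD81+ cells. Small intestinal CD34+ FB were above every other library. SMC, colonic Fgfr2+, CD90+ and CD81+ FB lay in the middle and pericytes and most PDGFRα hi FB libraries near 0.

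The summed counts of *Adamts19* gave a ratio of SMC to small intestinal pericytes of 234, with an interval of 114 to 584 that covers counting error only and not the spread between libraries, since no pericyte library held more than 3 counts (adjusted p = 0.00429). The call remained with any pericyte library left out, and without any 1 of the SMC libraries the gene fell below the count filter and was not tested. *Adamts19* was higher in Fgfr2+ FB than in PDGFRα hi FB, without overlap (edgeR, log2 fold change 4.68, SE 0.90, adjusted p = 0.00735), higher in colonic CD81+ FB than in the other colonic FB (edgeR, log2 fold change 2.44, SE 0.33, adjusted p = 0.000308), and lower in colonic pericytes than in colonic FB (edgeR, log2 fold change -6.66, SE 0.70, adjusted p = 1.81e-06). The other colonic FB are a mean of 3 populations that differ in this gene, at 74.9 CPM in Fgfr2+, 68.7 in CD90+ and 0.845 in PDGFRα hi FB. CD81+ FB, at a mean of 88.3 CPM, overlapped with Fgfr2+ and CD90+ FB. *Adamts19* was lower in small intestinal mural cells than in FB (edgeR, log2 fold change -2.79, SE 0.72, adjusted p = 0.0196), a mean over SMC and pericytes that differ in this gene. Without replicate 3 of small intestinal PDGFRα hi FB, the only library of that population over 1 CPM, the log2 fold change was -1.63 (adjusted p = 0.0231). Its higher level in small intestinal CD34+ FB than in the CD34- FB (edgeR, log2 fold change 3.22, SE 0.83, adjusted p = 0.0478) was lost without any replicate of small intestinal CD34+ FB, replicates 1 and 2 of small intestinal PDGFRα hi FB or replicates 1 and 3 of small intestinal Fgfr2+ FB (log2 fold changes 2.93 to 3.26, adjusted p 0.0613 to 0.161), and with coding transcripts alone (adjusted p = 0.0596), although the populations did not overlap. Without replicate 3 of small intestinal PDGFRα hi FB the log2 fold change was 4.99.

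*Adamts17* was at 230.1, 106 and 309 CPM among CD34+ FB, 64.0, 98.2 and 121 CPM in Fgfr2+ FB and 83.9, 60.9 and 111 CPM in PDGFRα hi FB of the small intestine. In colonic FB *Adamts17* was at 73.9, 63.9 and 82.3 CPM in PDGFRα hi, 129, 65.6 and 192 in Fgfr2+, 109.7, 74.5 and 166 in CD90+ and 166, 32.9 and 168 in CD81+ cells. *Adamts17* was at 41.4, 38.4 and 8.12 CPM in small intestinal pericytes, 36.8, 26.9 and 169 in SMC and 4.06, 2.46 and 11.8 in colonic pericytes. Colonic pericytes were below every FB library, and replicate 3 of SMC was well above the other SMC replicates. That library had the higher endothelial marker sum and also held 9829 CPM of FB markers, against 5192 and 5429 CPM in the other SMC replicates. A part of other cell types in this value was not tested. *Adamts17* was called lower in colonic pericytes than in colonic FB and in no other comparison. *Adamts10* was at 305 to 489 CPM in Fgfr2+ FB and 56.7 to 157 CPM in PDGFRα hi FB, without overlap (edgeR, log2 fold change 1.86, SE 0.24, adjusted p = 0.000245). With coding transcripts alone that value was 2.06 and was not called (adjusted p = 0.343).

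*Adamts13* (chromosome 2, 26973416 to 27009628) encodes the protease that cleaves von Willebrand factor in plasma, known mainly from hepatic stellate cells, the pericytes of the liver. *Adamts13* was at 3.07, 6.93 and 31.01 CPM in small intestinal pericytes, 0.639, 0 and 0.116 in SMC and 35.8, 24.8 and 30.1 in colonic pericytes. *Adamts13* in the small intestinal FB was at 3.94, 0.163 and 0 CPM in PDGFRα hi, 0.690, 0.276 and 2.57 in Fgfr2+ and 0.189, 2.52 and 0.321 in CD34+ cells. In colonic FB *Adamts13* was at 0.122, 0.262 and 7.74 CPM in PDGFRα hi, 0.428, 0 and 0.976 in Fgfr2+, 0.612, 0 and 0 in CD90+ and 0, 0.123 and 0 in CD81+ cells. Colonic pericytes were above every FB library, of which the highest was at 7.74 CPM. Among small intestinal pericytes only replicate 3 reached the colonic level. *Adamts13* was higher in colonic pericytes than in colonic FB (edgeR, log2 fold change 6.43, SE 1.06, adjusted p = 0.000270), a call that remained with every library left out, and was not called between pericytes of the small intestine and colon (adjusted p = 0.836). *Adamts16* and *Adamts18*, whose roles in matrix are less well described, stayed at or below 13.6 CPM. *Adamts18* was counted mainly in colonic PDGFRα hi FB, at 5.02, 13.6 and 9.78 CPM, and was not called.

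*Timp3* (chromosome 10, 86300372 to 86349506) encodes the inhibitor that binds to matrix and blocks several ADAMTS and ADAM proteases as well as MMPs. *Timp3* was at 3112, 3129.8 and 4843 CPM in small intestinal pericytes, 771, 609 and 1083 in SMC and 2119, 3081 and 2632 in colonic pericytes. *Timp3* in the small intestinal FB was at 607, 441 and 441 CPM in PDGFRα hi, 57.7, 161 and 65.8 in Fgfr2+ and 579.9, 871 and 740.0 in CD34+ cells. In colonic FB *Timp3* was at 450.2, 524 and 408 CPM in PDGFRα hi, 719.9, 936 and 1032 in Fgfr2+, 1855, 1678 and 1407 in CD90+ and 1929, 1298 and 790.5 in CD81+ cells. Pericytes of the small intestine were above every other library and those of the colon next, and small intestinal Fgfr2+ FB were below every other library. In the small intestine *Timp3* was higher in mural cells than in FB (edgeR, log2 fold change 2.41, SE 0.23, adjusted p = 3.05e-06) and higher in CD34+ FB than in the CD34- FB (edgeR, log2 fold change 1.74, SE 0.30, adjusted p = 0.00550), and SMC were below pericytes (edgeR, log2 fold change -2.23, SE 0.39, adjusted p = 0.0138). The last call was lost without replicate 3 of small intestinal pericytes or replicates 1 and 2 of SMC (log2 fold changes -2.21 to -2.01, adjusted p 0.07003 to 0.0901), the others with no single library. The mural side is a mean over pericytes and SMC that differ in this gene, and SMC, at 609 to 1083 CPM, overlapped with CD34+ FB. Small intestinal CD34+ FB, at 579.9 to 871 CPM, overlapped with PDGFRα hi FB, at 441 to 607 CPM, whereas Fgfr2+ FB were at 57.7 to 161 CPM. In Fgfr2+ FB *Timp3* was lower in the small intestine than in the colon (edgeR, log2 fold change -3.22, SE 0.36, adjusted p = 7.75e-05), whereas PDGFRα hi FB of both tissues overlapped (log2 fold change 0.12, adjusted p = 1.00). The interaction term was -3.35 on the log2 scale (SE 0.48, adjusted p = 0.00153), and it remained with every library left out. The 8 pericyte markers summed to 2160.1, 1882 and 2163 CPM in small intestinal and 559 to 755 CPM in colonic Fgfr2+ FB, and their part in the *Timp3* levels was not tested. *Timp3* lies within *Syn3*, and 21.8% of its 31-base stretches occur in other genes’ transcripts. *Syn3* had 5221 counts over all libraries beside 407755 for *Timp3*, and a division of reads between them was not tested.

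*Timp2*, whose product together with MMP14 takes part in activating the MMP2 precursor, ranged from 202 to 2438 CPM. *Timp2* was at 521, 343 and 267 CPM in small intestinal pericytes, 753, 518 and 871 in SMC and 299.8, 376 and 202 in colonic pericytes. *Timp2* in the small intestinal FB was at 735, 1071 and 515 CPM in PDGFRα hi, 689.8, 752 and 479 in Fgfr2+ and 1471, 1501 and 1279 in CD34+ cells. In colonic FB *Timp2* was at 886, 938 and 1089 CPM in PDGFRα hi, 1097, 1217 and 1532 in Fgfr2+, 1537, 1656 and 1317 in CD90+ and 2438, 2377 and 1459 in CD81+ cells. Pericytes of the colon were below every FB library, the small intestinal FB of the CD34- gates overlapped with SMC, and the mean was highest in colonic CD81+ FB, which overlapped with other FB. *Timp2* was called lower in colonic pericytes than in colonic FB and in no other comparison. Between Fgfr2+ FB of the small intestine and colon it had a log2 fold change of -0.99 (adjusted p = 0.0501), short of both thresholds.

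*Timp1*, the TIMP known to be induced by inflammation and growth factors, was at most 22.5 CPM. *Timp1* in the small intestinal FB was at 5.26, 2.60 and 1.59 CPM in PDGFRα hi, 1.86, 0.0919 and 0 in Fgfr2+ and 13.7, 7.56 and 16.2 in CD34+ cells. In colonic FB *Timp1* was at 22.5, 16.1 and 14.9 CPM in PDGFRα hi, 8.99, 11.8 and 8.56 in Fgfr2+, 17.4, 10.9 and 16.2 in CD90+ and 1.37, 7.01 and 7.80 in CD81+ cells. *Timp1* was at 0, 0.851 and 0 CPM in small intestinal pericytes, 0.213, 0.0988 and 0 in SMC and 0, 0 and 0.0731 in colonic pericytes. The mean was highest in colonic PDGFRα hi FB and lowest among FB in small intestinal Fgfr2+ FB, and all mural libraries were below 1 CPM. Colonic pericytes held 1 count in all, and the summed counts gave a ratio of colonic FB to pericytes of 372, with an interval of 66.7 to 14712 that covers counting error only (adjusted p = 4.26e-05). In the small intestine *Timp1* was lower in mural cells than in FB (edgeR, log2 fold change -3.999, SE 1.12, adjusted p = 0.0303), a call lost without any replicate of SMC, any replicate of small intestinal CD34+ FB, replicate 1 of small intestinal PDGFRα hi FB or replicate 1 of small intestinal Fgfr2+ FB (log2 fold changes -4.44 to -2.92, adjusted p 0.0501 to 0.120) and with replicate numbers as a block (log2 fold change -4.02, adjusted p = 0.0506). Without replicate 2 of small intestinal pericytes the log2 fold change was -6.30. *Timp4* was at 4.47, 1.23 and 13.9 CPM in colonic pericytes and at most 5.82 CPM in any other library. It was called higher in colonic pericytes than in colonic FB (edgeR, log2 fold change 2.82, SE 0.81, adjusted p = 0.0196), and not without replicate 3 of these pericytes (log2 fold change 1.63, adjusted p = 0.272).

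**Figure D3:**
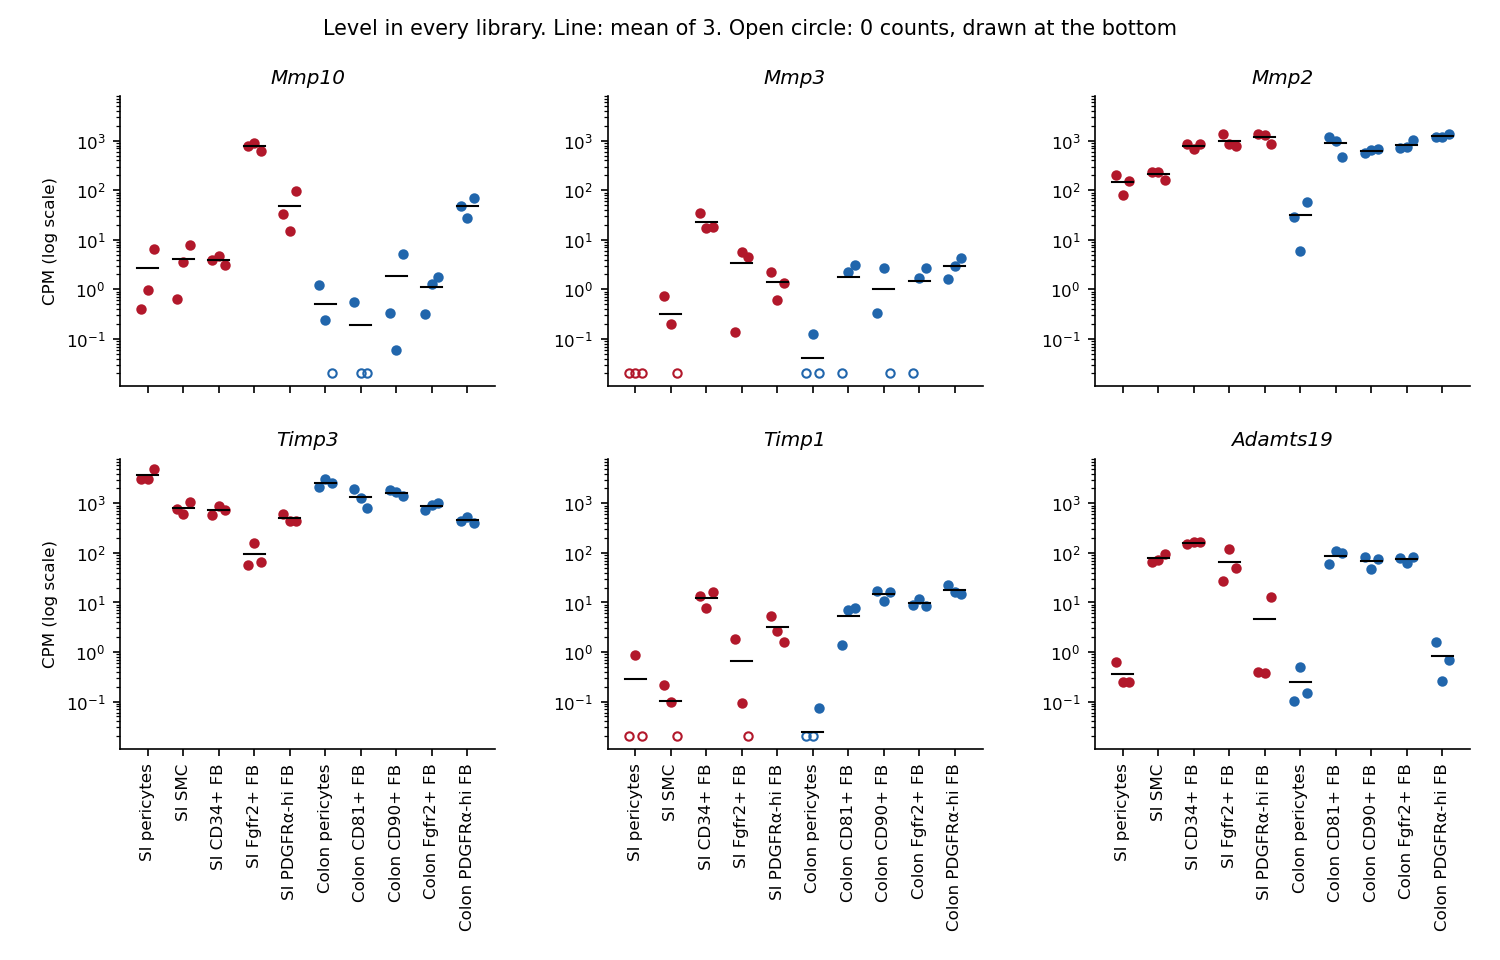
CPM of members given library by library, on log axes, in the 10 populations. Each point is 1 library, and *Mmp10* in small intestinal Fgfr2+ FB lies between 630.2 and 921 CPM.

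The comparison of Fgfr2+ FB with PDGFRα hi FB over both tissues asked how the subsets differ irrespective of location. Of the 45 members 38 were tested and 6 were called, all higher in Fgfr2+ FB (*Adamts19*, *Mmp16*, *Adamts12*, *Adamts2*, *Adamts10* and *Adamts1*), where 2.66% of all genes tested were called, 1.37% as higher and 1.29% as lower. All 6 had every Fgfr2+ FB library above every PDGFRα hi FB library. They were called from these same libraries, and the share of all genes without overlap was not counted. The median log2 fold change of the members tested was 0.38, against 0.08 over all genes tested. No MMP other than *Mmp16* and no TIMP was called. Both tissues were pooled here, so subset differences of opposite direction per tissue can be missed. For *Mmp10*, Fgfr2+ FB libraries all lay above PDGFRα hi FB libraries within small intestine, and all below them within colon. For *Timp3* the directions were reversed, again without overlap within either tissue. Among 49 other genes of matrix proteolysis, from 5 lists, 3 were higher and 6 lower of 46 tested. Of the activators the largest difference was that of the tolloid-like gene *Tll2* (edgeR, log2 fold change -7.88, SE 1.33, adjusted p = 0.00275). The plasminogen activator gene *Plau* was at 5.04 CPM in Fgfr2+ FB and 78.8 CPM in PDGFRα hi FB (edgeR, log2 fold change -3.96, SE 0.64, adjusted p = 0.00184), the proprotein convertase gene *Pcsk6* was also lower (edgeR, log2 fold change -2.47, SE 0.37, adjusted p = 0.000986), and the protease inhibitor gene *Serpine2* was higher (edgeR, log2 fold change 2.72, SE 0.32, adjusted p = 0.000117).

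In the tissue comparisons, small intestine was set against colon within each subset in 1 model of 12 libraries. In PDGFRα hi FB 1 of 38 members tested was called, *Adamts15*, where 1.75% of all genes were called, 0.625% higher and 1.12% lower. The median log2 fold change of the members tested was -0.19, against 0.00 over all genes tested. In Fgfr2+ FB 3 of 38 were called, *Mmp10* and *Adamts12* higher and *Timp3* lower in the small intestine, where 3.04% of all genes were called, 1.26% higher and 1.79% lower. Here the members had a median of 0.38, against 0.01 over all genes tested. The interaction was called for 2 of 38 members, *Mmp10* and *Timp3*, and for 1.25% of all genes, 0.663% upward and 0.587% downward, with medians of 0.42 over members and 0.00 over all genes. The tissue comparisons and the interaction share libraries. *Fbln1*, which encodes fibulin-1, a cofactor of ADAMTS1, was lower in the small intestine both for PDGFRα hi FB (edgeR, log2 fold change -5.09, SE 0.43, adjusted p = 7.51e-06) and for Fgfr2+ FB (edgeR, log2 fold change -3.11, SE 0.39, adjusted p = 0.000236). *Adam23*, an ADAM family gene without protease activity, was lower there too (edgeR, log2 fold change -5.53, SE 0.50, adjusted p = 1.11e-05 and edgeR, log2 fold change -5.58, SE 0.49, adjusted p = 1.16e-05). Of the 46 related genes tested, 3 were higher and 5 lower in PDGFRα hi FB of the small intestine, and 1 higher and 4 lower in Fgfr2+ FB.

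Pericytes, sorted through the same gate in both tissues, gave no call in the fit of their 6 libraries. Of 29 members tested 0 were called by edgeR’s quasi-likelihood test, where 0% of 13369 genes were, and at an unadjusted p under 0.05 there were 4 members and 1079 genes. DESeq2 called 1 member and 348 genes, and 1 model of all 30 libraries called 4 members and 997 genes. The largest difference among the 4 members at an unadjusted p under 0.05 was that of *Adamts14* (log2 fold change 5.91, SE 1.37, adjusted p = 0.276), which was at 48.1, 14.95 and 38.4 CPM in the small intestine and 0.416, 0.246 and 1.02 CPM in the colon. The members’ median was 0.42 and that of all genes 0.01. None of 41 related genes tested was called.

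Mural cells were compared with FB in each tissue to see which members go with ESAM-1+ cells. In the small intestine 11 of 38 members were called, 3 higher in mural cells (*Mmp28*, *Adamts8* and *Timp3*) and 8 lower (*Mmp3*, *Timp1*, *Mmp10*, *Mmp19*, *Adamts19*, *Mmp2*, *Mmp23* and *Adamts14*), where 8.39% of all genes were called, 3.71% higher and 4.68% lower. The median log2 fold change of the members tested was -0.51, against 0.00 over all genes tested. In the colon 16 of 39 members were called, 6 higher in pericytes (*Adamts13*, *Adamts8*, *Adamts15*, *Timp4*, *Adamts9* and *Adamts1*) and 10 lower (*Timp1*, *Mmp24*, *Adamts19*, *Adamts14*, *Adamts6*, *Mmp2*, *Mmp23*, *Adamts17*, *Mmp19* and *Timp2*), where 16.5% of all genes were called, 8.98% higher and 7.53% lower. The members’ median was -1.32, or -1.29 with members near 0 set at their bound, against 0.05 over all genes. By role, 4 of 7 proteoglycanases of the ADAMTS family were higher in colonic pericytes and none lower, while 3 of 4 fibrillin-associated genes were lower and none higher. In small intestinal mural cells 1 of 6 proteoglycanases tested was higher and 1 of 4 fibrillin-associated genes lower. *Timp3* was not called in the colon, where its log2 fold change was 1.45 (adjusted p = 4.97e-05), below the fold threshold. Over all 5 lists of related genes, 1 was higher and 17 lower in mural cells of 46 tested in the small intestine. In colonic pericytes 3 were higher and 19 lower of 45 tested. Among activators and clearance genes, 8 of 17 tested in the small intestine and 9 of 16 in the colon were called lower, and none higher in either. The largest were *Thbs2* in the small intestine, which encodes thrombospondin-2, a ligand through which MMP2 is cleared (edgeR, log2 fold change -6.14, SE 0.49, adjusted p = 3.98e-07), and the serine protease gene *Htra3* in the colon (edgeR, log2 fold change -7.75, SE 0.46, adjusted p = 2.59e-09). *Vcan*, the ADAMTS substrate versican, was at 143 CPM in mural cells and 1289.6 CPM in FB of the small intestine (edgeR, log2 fold change -4.58, SE 0.44, adjusted p = 2.38e-06), and at 39.4 and 1953 CPM in the colon (edgeR, log2 fold change -5.52, SE 0.36, adjusted p = 6.45e-09).

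SMC and pericytes of the small intestine were compared over 6 libraries. Of 30 members tested 4 were called, *Adamts19* and *Adamts6* higher and *Timp3* and *Adamts12* lower in SMC, where 2.82% of all genes were called, 1.39% higher and 1.42% lower. The median log2 fold change of the members tested was 0.14, against 0.01 over all genes tested. FB markers were higher in SMC (5192, 5429 and 9829 CPM) than in small intestinal pericytes (2449.8, 2459 and 1949 CPM) and pericyte markers ran the other way, and their part in these results was not tested. All 6 FB markers were counted in every SMC library. *Adamts6*, at 114 to 121 CPM in SMC, was lower in every FB library, at 42.1 CPM or less, whereas *Adamts19* in SMC was within the range of FB. *Adamdec1* (edgeR, log2 fold change 6.96, SE 0.51, adjusted p = 0.000247), *Htra3* (edgeR, log2 fold change 6.05, SE 1.07, adjusted p = 0.0146) and *Vcan* (edgeR, log2 fold change 5.15, SE 0.94, adjusted p = 0.0181) were higher in SMC than in pericytes, and in all 3 related genes were higher and 1 lower of 42 tested.

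Within small intestinal FB, CD34+ FB were compared with the mean of the CD34- FB. Of 36 members tested 5 were higher (*Mmp3*, *Adamts19*, *Mmp16*, *Adamts2* and *Timp3*) and 2 lower (*Mmp10* and *Adamts4*), where 4.45% of all genes were called, 3.28% higher and 1.17% lower. The median log2 fold change of the members tested was 0.63, against -0.02 over all genes tested. Among 46 related genes tested 5 were higher and 5 lower, the latter 2 activators or clearance genes and 3 ADAM family genes. *Fbln1* was at 3065 CPM in CD34+ FB and 117 CPM in CD34- FB (edgeR, log2 fold change 6.06, SE 0.35, adjusted p = 3.81e-06), and *Pcolce2*, which encodes an enhancer of procollagen C-proteinase, was higher too (edgeR, log2 fold change 5.85, SE 0.84, adjusted p = 0.00174). Of 5 ADAMTS-like genes, whose products resemble ADAMTS without the protease domain, 2 were higher, *Adamtsl3* (edgeR, log2 fold change 3.87, SE 0.42, adjusted p = 0.000280) and *Adamtsl5* (edgeR, log2 fold change 3.06, SE 0.36, adjusted p = 0.000449). In the colon, CD81+ FB were compared with the mean of the other 3 FB populations. Of 39 members 4 were higher (*Adamts19*, *Adamts5*, *Adamts1* and *Adamts12*) and 2 lower (*Adamts9* and *Adamts14*), where 5.3% of all genes were called, 3.40% higher and 1.90% lower. The members’ median was 0.15, against 0.09 over all genes tested. *Pcolce2* (edgeR, log2 fold change 6.31, SE 0.60, adjusted p = 1.16e-05) and *Adamtsl3* (edgeR, log2 fold change 4.35, SE 0.42, adjusted p = 1.37e-05) were again higher in CD81+ FB, and in all 5 related genes were higher and 1 lower of 45 tested.

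CD90+ FB and Fgfr2+ FB of the colon, which share PDPN hiCD34+ gates and differ in CD90, gave no call. Of 33 members tested 0 were called by edgeR’s quasi-likelihood test, where 0.0133% of 15061 genes were. At an unadjusted p under 0.05 there were 4 members and 1053 genes, and DESeq2 called 0 members and 97 genes. The smallest p among members was that of *Timp3*, at 1855, 1678 and 1407 CPM in CD90+ FB and 719.9, 936 and 1032 CPM in Fgfr2+ FB, without overlap (log2 fold change 0.87, SE 0.20, adjusted p = 0.281). The members’ median was -0.05 and that of all genes -0.02.

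Over the 11 comparisons, 26 members were called at least once, 14 were tested and never called, and 5 were tested in none (*Adamts16*, *Mmp1b*, *Mmp7*, *Mmp9* and *Mmp20*). The share of all genes called at least once was not counted. Single comparisons called from 0% (pericytes between tissues) to 16.5% (colonic pericytes against FB) of all genes tested. The 26 members gave 56 calls, of which 35 were lost under no alternative setting and with no library left out. Of these, the call of *Adamts19* in SMC against pericytes could not be tested when any SMC library was left out.

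The limits are those of 3 libraries per population of amplified RNA. Populations were sorted through gates that differ between tissues for PDGFRα hi and Fgfr2+ FB, and pericyte replicates of the small intestine correlated least. Counts per gene include transcripts not annotated as coding, which for *Adamts8*, *Adamts10*, *Adamts16*, *Mmp12* and *Mmp16* make up most of the counts. More than 10% of the 31-base stretches of *Adamts9*, *Mmp1b*, *Mmp3*, *Mmp10*, *Mmp19*, *Mmp24*, *Mmp28* and *Timp3* transcripts are shared with other genes, and a division of reads was not tested. Transcript levels do not tell how much protein is made, secreted, activated or bound by inhibitors, and MMPs and ADAMTS proteases are regulated at each of these steps. Neither protease activity nor protein was measured in these libraries, and the mice were untreated adults.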

How the data were processed

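The authors trimmed reads with Trim Galore 0.4.0, checked them with FastQC 0.11.2 and quantified transcripts with kallisto 0.42.5, per the submitters' processing notes. The estimated counts per transcript that the authors deposited come from this step, and the transcript set was not given in the sources used here.

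Here, estimated counts were summed to gene symbols (GENCODE M21) and rounded, from 2245052 to 19096945 per library. Analyses ran in R 4.3.3 with edgeR 4.0.16 (quasi-likelihood test, TMM, robust fits), which loads limma 3.58.1, and DESeq2 1.42.0 as the other tool. Genes needed 6 counts in 3 libraries of a comparison, and calls an adjusted p (Benjamini-Hochberg, over all genes tested) under 0.05 with a log2 fold change over 1.5 in size. Where a group had no count, folds are lower bounds with a floor of 3 counts per library. Log values used a prior count of 2. Named genes were all members, and related genes by largest fold change within their list. A result on 1 related gene is not reported here.

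The members and the gene lists were chosen with earlier results of these data known. Alternatives tried were DESeq2, RLE normalization, no filter, no fold threshold, a replicate block, 1 model of all libraries and each library left out. Summing coding transcripts alone was added after seeing the data. The scripts were tested on simulated data.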

Additional observations from a re-analysis of the deposited data

Results flagged for a closer look

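The interaction test, which asks whether the difference between small intestine and colon is the same in Fgfr2+ FB and PDGFRα hi FB, picked out *Mmp10* at 9.46 and *Timp3* at -3.35 on the log2 scale. The tissue difference of both genes was called in Fgfr2+ FB and not in PDGFRα hi FB. Both populations were sorted through different gates in the small intestine and colon.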

How the results depend on the processing

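Of the 56 calls of members, DESeq2 and RLE normalization kept all, no low count filter 55, 1 model of all 30 libraries 51, a replicate block 50, and coding transcripts alone 50 of 55. Numbers of members called moved for PDGFRα hi FB between tissues from 1 to 4 with DESeq2, 2 with RLE and 2 with 1 model, for Fgfr2+ FB between tissues from 3 to 6 with DESeq2, and for the interaction from 2 to 6 with DESeq2 and 4 without filter. For pericytes between tissues they moved from 0 to 1 with DESeq2 and 4 with 1 model, for SMC against pericytes from 4 to 10 with DESeq2 and 10 with 1 model, and for CD34+ against CD34- FB from 7 to 11 with DESeq2. The cause was not tested.

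Numbers of all genes called moved for Fgfr2+ against PDGFRα hi FB from 417 to 697 (DESeq2), PDGFRα hi FB between tissues from 274 to 520 (DESeq2) and 168 (1 model of all libraries), Fgfr2+ FB between tissues from 477 to 1084 (DESeq2) and 258 (1 model of all libraries) and the interaction from 196 to 561 (DESeq2) and 114 (1 model of all libraries). They also moved for pericytes between tissues from 0 to 348 (DESeq2), 21 (no filter), 997 (1 model of all libraries) and 3 (coding transcripts), SMC against pericytes from 388 to 1250 (DESeq2) and 1774 (1 model of all libraries), CD81+ against other colonic FB from 854 to 1290 (DESeq2) and CD90+ against Fgfr2+ FB from 2 to 97 (DESeq2), 12 (no filter), 7 (replicate block), 0 (1 model of all libraries) and 1 (coding transcripts). The balance of directions moved too. For colonic pericytes against FB it was 1478 higher and 1239 lower, with DESeq2 1477 higher and 1781 lower, and with a replicate block 1078 higher and 1158 lower. For CD81+ against other colonic FB it was 548 higher and 306 lower, and with DESeq2 660 higher and 630 lower. For Fgfr2+ against PDGFRα hi FB it was 214 higher and 203 lower, and with a replicate block 152 higher and 176 lower.

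With 1 library left out at a time, the members called ranged 5 to 7 for Fgfr2+ against PDGFRα hi FB, 1 to 2 for PDGFRα hi FB between tissues, 2 to 4 for Fgfr2+ FB between tissues, 2 to 4 for the interaction, 8 to 12 for small intestinal mural cells against FB, 15 to 17 for colonic pericytes against FB, 0 to 4 for SMC against pericytes, 4 to 8 for CD34+ against CD34- FB and 4 to 7 for CD81+ against other colonic FB, and stayed at 0 for pericytes between tissues and CD90+ FB. Of all genes, the numbers called ranged 308 to 417 for Fgfr2+ against PDGFRα hi FB (417 with all), 184 to 339 for PDGFRα hi FB between tissues (274 with all), 274 to 487 for Fgfr2+ FB between tissues (477 with all), 140 to 228 for the interaction (196 with all), 0 to 1 for pericytes between tissues (0 with all), 988 to 1792 for small intestinal mural cells against FB (1362 with all), 2408 to 2834 for colonic pericytes against FB (2717 with all), 186 to 368 for SMC against pericytes (388 with all), 344 to 851 for CD34+ against CD34- FB (696 with all), 698 to 1222 for CD81+ against other colonic FB (854 with all) and 0 to 25 for CD90+ against Fgfr2+ FB (2 with all). *Mmp28* in small intestinal mural cells against FB ranged from -1.16 to 5.002, the lowest without replicate 1 of small intestinal pericytes. Of 705 such values 617 kept the call, 87 lost it and 1 was reversed.

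A replicate block, which treats equal replicate numbers as paired, called 6, 1, 3, 2, 0, 8, 16, 3, 7, 6 and 0 members in the 11 comparisons, in the order Fgfr2+ against PDGFRα hi FB, PDGFRα hi FB between tissues, Fgfr2+ FB between tissues, the interaction, pericytes between tissues, small intestinal mural cells against FB, colonic pericytes against FB, SMC against pericytes, CD34+ against CD34- FB, CD81+ against other colonic FB and CD90+ against Fgfr2+ FB. In the same order it called 328, 249, 377, 175, 0, 1053, 2236, 356, 632, 621 and 7 of all genes. It ended the calls (log2 fold change, adjusted p by edgeR) of *Adamts8* (3.205, 0.167), *Mmp28* (3.79, 0.108) and *Timp1* (-4.02, 0.0506) in mural cells, *Adamts12* in SMC (-2.20, 0.0919), and *Adamts4* (-1.44, 0.0367) and *Mmp3* (3.40, 0.0588) in CD34+ FB. Deviations from the group means correlated at a mean r of 0.00757 over 135 pairs of same-numbered libraries (range -0.113 to 0.136) and -0.00342 over differently numbered ones, and 23 of 30 libraries lay closest to libraries of their own number. The labels do not say whether a number marks a mouse, and the libraries were treated as unpaired.

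Fitting 1 model of all libraries ended the calls of *Adamts12* for Fgfr2+ FB between tissues (1.51, 0.115), *Adamts4* (-1.52, 0.0786) and *Mmp3* (3.43, 0.227) in CD34+ FB, and *Adamts12* (1.498, 0.00881) and *Adamts14* (-1.68, 0.0875) in CD81+ FB (log2 fold change, adjusted p by edgeR). No filter ended that of *Adamts19* in CD34+ FB (3.23, 0.0924).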
